A study of Mus musculus with 12 samples.

Results

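The complement system is described here through 34 genes, listed by name with earlier results of these data known. These comprise 7 of the classical pathway, 3 of the lectin pathway, 4 of the central and alternative pathway, 3 of the terminal pathway, 8 regulators and 9 receptors. They are 34 of the 22195 genes whose reads were summed, and 31 of them were among the 13478 genes with enough reads to be tested. The terminal component C7, the regulator Vtn and the receptor Vsig4 were not. Bulk RNA came from skin tumours that the mouse melanoma line YUMM 2.1 formed under the skin of C57BL/6J mice with an intact immune system. Treatment with control IgG (isotype control), an antibody to the checkpoint protein B7-H3 (anti-B7-H3), an antibody to the T cell checkpoint receptor PD1 (anti-PD1) or both antibodies (combination) began at a tumour size of 20 to 50 mm3, with 3 libraries per group. The time of sampling and the age and sex of the mice are not given in the sources used here. Whether the libraries of a group are different mice is likewise not stated, so the p-values measure the spread between libraries, which may be technical.

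Complement is a cascade of plasma and cell surface proteins that tags targets for uptake, recruits leukocytes and can pierce membranes. C1q bound to antibody or dying cells starts the classical pathway through the proteases C1r and C1s, sugar-binding lectins start the lectin pathway through MASP proteases, and the alternative pathway amplifies deposited C3 with factors B and D and properdin. All routes meet at C3, whose fragments label targets and whose small peptide C3a, like C5a from C5, acts on receptors of myeloid cells. Liver cells make most plasma complement, whereas C1q is made mainly by macrophages and immature dendritic cells, and tumour stroma and myeloid cells can make C3 and other components locally.

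RefSeq promoter windows (mouse build GRCm38.p6, 250 bases before to 50 after the start site) were matched by symbol for 23 of the 34 genes. The 4 windows printed belong to C3, the member with the largest increase against isotype control, to the neighbouring C1q chain genes C1qb and C1qc, which moved together, and to Cfp, which encodes properdin. All 4 lie on the minus strand and are written 5′ to 3′ along the gene, and capitals mark matches to the motifs searched.
C3 (chr17:57228087-57228386): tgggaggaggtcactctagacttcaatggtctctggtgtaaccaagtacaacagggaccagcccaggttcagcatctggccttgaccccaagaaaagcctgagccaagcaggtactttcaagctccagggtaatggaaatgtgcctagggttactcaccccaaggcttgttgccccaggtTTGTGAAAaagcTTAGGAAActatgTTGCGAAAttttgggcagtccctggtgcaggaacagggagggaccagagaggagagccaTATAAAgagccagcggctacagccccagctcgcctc
C1qb (chr4:136886151-136886450): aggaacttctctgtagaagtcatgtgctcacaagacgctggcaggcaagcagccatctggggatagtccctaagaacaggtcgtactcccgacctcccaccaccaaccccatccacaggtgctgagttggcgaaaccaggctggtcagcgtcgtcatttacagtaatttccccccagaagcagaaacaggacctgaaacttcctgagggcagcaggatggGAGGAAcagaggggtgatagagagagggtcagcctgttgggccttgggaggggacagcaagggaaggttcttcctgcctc
C1qc (chr4:136892865-136893164): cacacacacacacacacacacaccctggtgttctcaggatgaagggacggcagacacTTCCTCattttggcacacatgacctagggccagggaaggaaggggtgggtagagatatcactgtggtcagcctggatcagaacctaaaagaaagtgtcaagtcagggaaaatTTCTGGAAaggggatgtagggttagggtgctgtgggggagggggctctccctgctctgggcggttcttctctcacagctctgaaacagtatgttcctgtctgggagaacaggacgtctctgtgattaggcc
Cfp (chrX:20931506-20931805): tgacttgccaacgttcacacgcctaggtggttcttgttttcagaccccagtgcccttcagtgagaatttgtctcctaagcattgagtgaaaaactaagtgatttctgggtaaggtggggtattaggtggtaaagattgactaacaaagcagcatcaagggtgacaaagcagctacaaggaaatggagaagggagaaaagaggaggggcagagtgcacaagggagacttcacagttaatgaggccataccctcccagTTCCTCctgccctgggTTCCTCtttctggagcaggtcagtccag

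Both strands were searched, each motif on its own, with N for any base: GAS as TTCNNNGAA, C/EBP as TTNNGNAA, and the ISRE and NF-kappaB motifs. The PU.1 box was searched as GAGGAA. For the TATA box the letters were TATAAA. The C3 window held 3 C/EBP matches, which begin at -70, -58 and -45 from the start site, the last of which matches on either strand, and a TATA box at 15. C1qb held 1 PU.1 box at -30. C1qc held 1 PU.1 box at -193 and 1 C/EBP match at -81. Cfp held 2 PU.1 boxes at 7 and 23. The C/EBP letters were present in 13 of 23 complement windows and in 40.7% of all 32851 RefSeq windows, and the PU.1 box in 7 of 23 and 28.3%. TATA boxes were found in 5 of 23 complement windows (13.6% of all windows), GAS in 4 (8.30%), ISRE in 3 (3.44%) and NF-kappaB in 1 (5.555%). A match describes these letters only and is not evidence of a bound factor.

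Libraries differed in make-up between groups in a way that touches every comparison with isotype control. Totals ran from 15585622 to 21298142 reads in isotype control, 8099713 to 10527704 in anti-PD1, 4409772 to 5014931 with the combination and 3593110 to 3937727 in anti-B7-H3 libraries. Satellite-like genes were those with predicted names that took at least 1% of the matched reads of any isotype control library, so they were chosen for being high there. These 10 genes accounted for 91.2% ± 1.87 (SD, n = 3) of the reads matched to genes with isotype control, 70.9% ± 2.94 in anti-PD1, 31.0% ± 2.19 with the combination and 0.143% ± 0.0668 in anti-B7-H3. Chemoreceptor genes, not expected to be transcribed in tumours, held 7.31 ± 0.502, 5.24 ± 0.216, 0.694 ± 0.0649 and 0.0908 ± 0.00662 reads per kilobase in that order, and this rate times a gene's coding length is called its background here. The chemoreceptor genes were picked by name, and their rates, like the satellite shares, did not overlap between groups. Library make-up and treatment therefore cannot be told apart. Satellite and chemoreceptor reads can come from genomic DNA carried into a library, and their share also depends on how much RNA went in; neither was tested. Levels are counts per 1000000 of the TMM-scaled library total (CPM), where TMM is edgeR's scaling that centres the bulk of genes between libraries. The TMM factors ran from 0.118 (isotype control 2) to 3.41 (anti-B7-H3 1), so every level and fold depends on this scaling. Markers of the labelled tumour cell were lower where complement was higher: the 7 melanocyte genes summed to 101 ± 8.68 CPM with isotype control, 84.5 ± 2.04 with anti-PD1, 45.4 ± 1.27 with the combination and 26.8 ± 1.77 with anti-B7-H3. In anti-B7-H3 against isotype control 3 of the 4 tested were called lower and none higher, with a median log2 fold change of -3.63 and a range of -6.10 to 0.18. The 7 genes held 850 isotype control reads beside a background of 219, and 1016 in anti-B7-H3 beside 2.72. In anti-B7-H3, 2 of the 7 had 0 reads. The part of these markers in the complement results was not tested.

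Complement reads were few in isotype control and many in anti-B7-H3 libraries. The 34 genes together held 1236 to 1554 reads per isotype control library, of which background alone would give 489 ± 33.5, and 4203 to 4765 per anti-PD1 library (background 351 ± 14.5). Combination libraries held 13779 to 16583 reads (background 46.4 ± 4.34) and anti-B7-H3 libraries 40986 to 45303 (background 6.08 ± 0.443). On the CPM scale the sum was 503 ± 27.0 in isotype control, 553 ± 12.2 in anti-PD1, 1365 ± 8.56 with the combination and 3382 ± 14.4 in anti-B7-H3. As a share of reads outside the satellite-like genes it was 0.0842% ± 0.00772, 0.160% ± 0.00514, 0.474% ± 0.00314 and 1.15% ± 0.00661 in the same order. The order of the groups was the same on both scales, but the distances between them were not. The reads of 11 members over the isotype control libraries did not exceed their background: C2, Masp2, Hc, C6, C7, Cfi, Cd55, Cd46, Vtn, C5ar2 and Vsig4. Those of 27 members were under 3 times background, and the 3 C1q chains, C4b, Itgb2, Cr1l and C1qbp stood higher. Where subtracting background from every gene ends a call or moves a fold against isotype control by over 1.5 times, the subtracted value is given beside the values below, and for the interaction in the closing section. The subtracted counts were filtered and TMM-scaled anew, so a subtracted value carries a change of scaling as well as the loss of background reads. Counts below 0 were set to 0. Where isotype control reads lay near or under background, the subtracted fold therefore depends on the prior count, a small number added to keep folds finite, and is no bound.

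**Figure D1:**
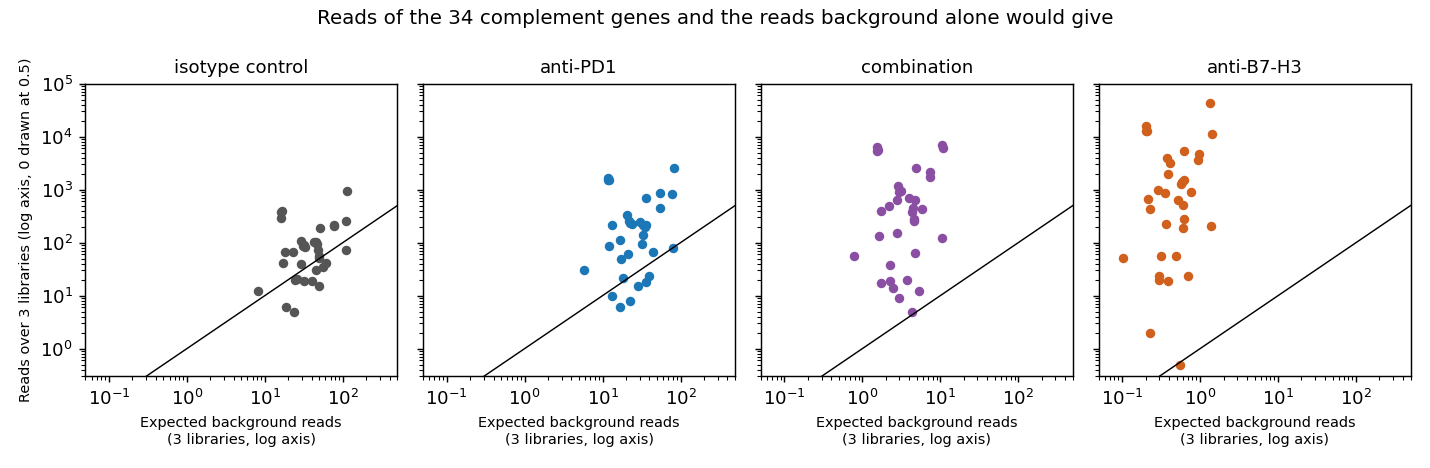
Reads of each of the 34 complement genes summed over 3 libraries (vertical, log axis, 0 drawn at 0.5) against the reads expected from background (horizontal, log axis), by group; the line marks equality. Isotype control points crowd the line, with 11 of 34 at or below it, and most anti-B7-H3 points lie far above it, with Masp2 at 0 reads.

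Against isotype control, anti-B7-H3 tumours had higher levels of 22 complement genes and lower levels of 4 (Masp1, Masp2, Hc and Cd46) of 31 tested, at an adjusted p under 0.05 in edgeR's quasi-likelihood test over all genes. In this comparison 64.1% of all genes tested were called, 30.8% of them higher and 33.3% lower, as shares of the tested genes. The median log2 fold change of the 31 was 1.66, beside -0.04 over all genes tested. Calls fell unevenly over the roles: all 7 classical and all 4 central and alternative genes were higher, as were 7 of 8 tested receptors, but only 2 of 7 tested regulators, with 1 lower. Role and read depth were not separated, as the regulators Cfi, Cd55, Cd59a and Cd46 had under 100 reads in every group. The receptors Cd93 and C1qbp lost their calls with background subtracted. Anti-PD1 tumours had 6 members higher and 8 lower (38.3% of all genes called, 17.5% higher and 20.9% lower), with a median of -0.14. The combination had 17 higher and 5 lower (57.3% of all genes called, 27.8% higher and 29.5% lower), with a median of 0.59. These 3 comparisons share the isotype control libraries and are not independent of each other.

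**Figure D2:**
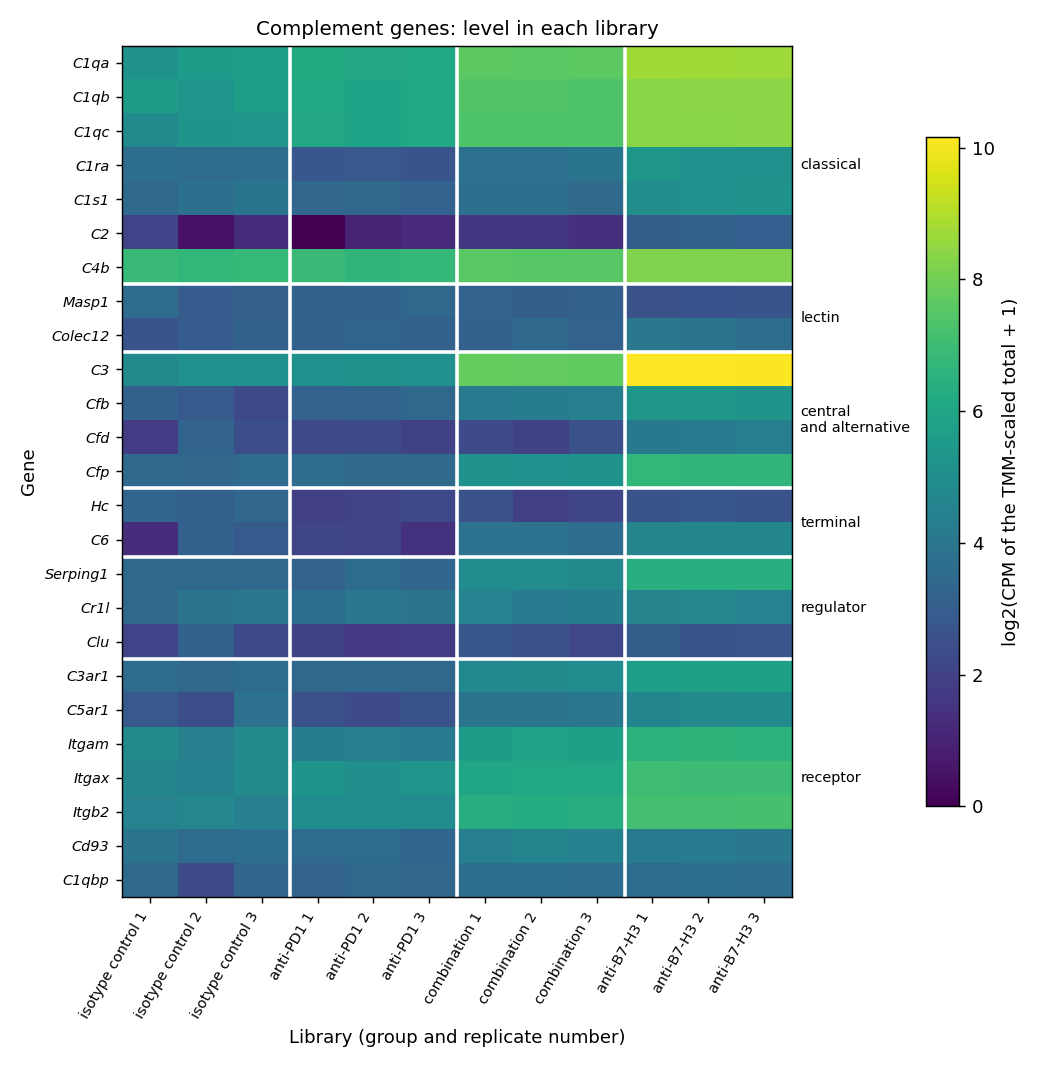
Levels of the 25 complement genes with at least 100 reads over the libraries of some group, as log2(CPM + 1), in each of the 12 libraries, ordered by role. C3 reaches the highest level in the anti-B7-H3 libraries, and most rows brighten from isotype control and anti-PD1 through the combination to anti-B7-H3.

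The combination was then compared with each antibody alone, where background is lower on one or both sides. Against anti-B7-H3, 23 of 31 members were lower in the combination and 4 were higher (Masp1, Masp2, Cd46 and Cd93); of all genes tested 39% were called, 19.8% higher and 19.1% lower. The median log2 fold change was -0.90, beside 0.01 over all genes. All 7 classical and all 4 central and alternative genes were among the lower ones. Against anti-PD1, 21 members were higher in the combination and 1, Masp2, was lower (46.5% of all genes called, 23.1% higher and 23.4% lower), with a median of 1.06. The interaction, which asks whether both antibodies together differ from the added log2 effects of the single antibodies, was called below the sum for 15 members and above it for 3 (36.4% of all genes called, 17.3% below and 19.1% above), with a median of -0.43.

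**Figure D3:**
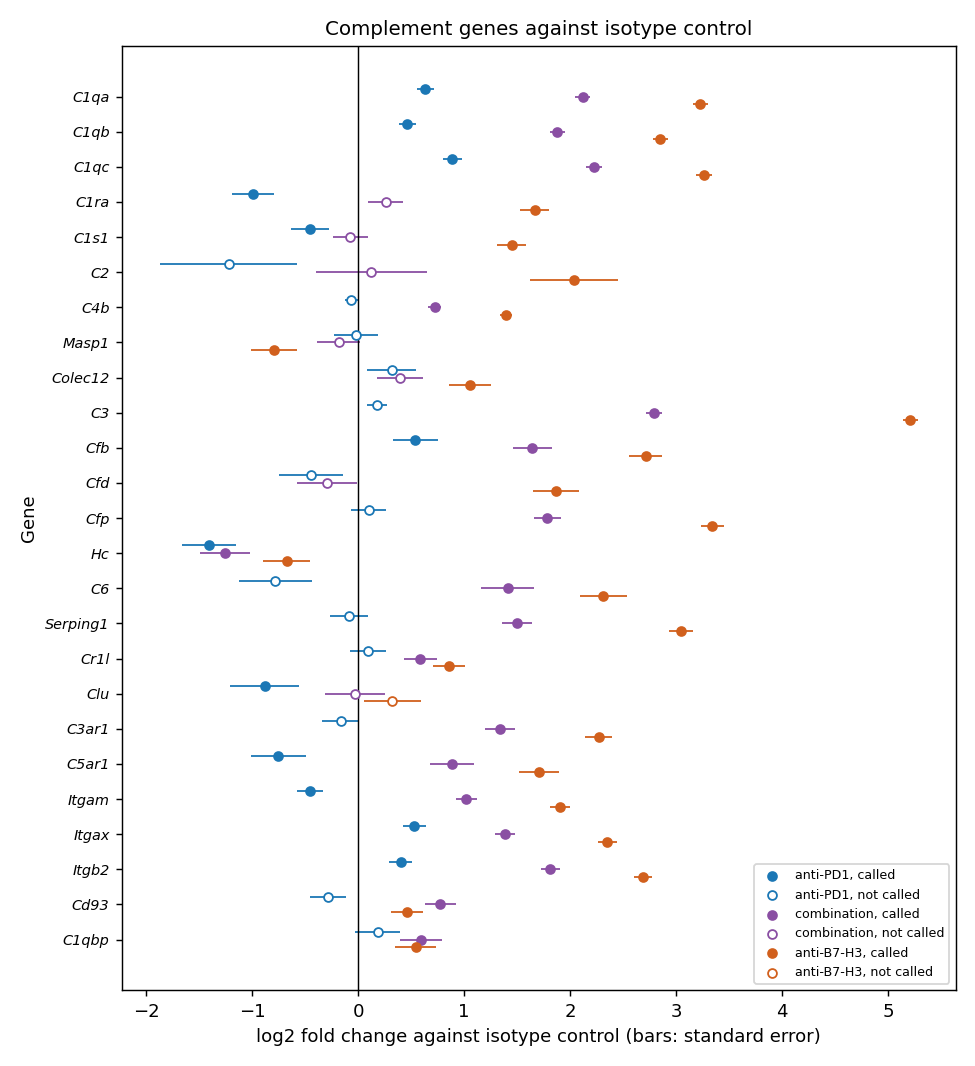
log2 fold change of 25 complement genes against isotype control for anti-PD1, combination and anti-B7-H3 (bars, standard error; filled points, called at an adjusted p under 0.05). The anti-B7-H3 points lie right of the combination points for all genes shown but Masp1, Cd93 and C1qbp, and C3 is farthest right at 5.21.

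C3, the protein on which all 3 activation routes converge, had the largest increase of the 31 members tested in anti-B7-H3. Its level was 26.6, 33.2 and 33.1 CPM with isotype control, 33.3, 36.8 and 33.9 with anti-PD1, 218, 212 and 207 with the combination and 1149, 1137 and 1116 with anti-B7-H3. The anti-B7-H3 libraries lay far above all others, the combination libraries came next, and isotype control and anti-PD1 lay just apart. C3 was higher by 5.21 ± 0.0702 in anti-B7-H3 than in isotype control (log2 fold change ± SE, 37.0-fold, adjusted p = 4.99e-63 in edgeR), which ranked 40 of 13478 genes by log2 fold change. The combination was higher than isotype control by 2.79 ± 0.0764 (adjusted p = 1.31e-43) and lower than anti-B7-H3 by a log2 fold change of -2.42 ± 0.0479 (adjusted p = 4.36e-52). The anti-PD1 difference of 0.18 ± 0.0959 was not called (adjusted p = 0.158). C3 reads over the isotype control libraries were 258, with 109 expected from background. With background subtracted from every gene the anti-B7-H3 difference was 5.18.

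C3 also took a larger share of all complement reads. It made up 6.15% of the reads of the 34 genes in isotype control, 6.27% in anti-PD1, 15.6% with the combination and 33.5% in anti-B7-H3 libraries (means, n = 3). C4b was the largest single contributor in isotype control at 22.2%, beside 8.66% in anti-B7-H3 libraries. Per kilobase of coding sequence, C3 stood at 227 ± 3.34 CPM in anti-B7-H3 libraries (mean ± SD, n = 3), below C1qa at 561 ± 4.997 and above C4b at 56.1 ± 0.401. In isotype control the same quantities were 6.20 ± 0.757, 60.5 ± 9.98 and 21.4 ± 0.892.

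Cfp, Cfb and Cfd complete the alternative pathway. Properdin (Cfp), which stabilises the alternative convertase and is made by myeloid cells, stood at 10.2, 9.20 and 10.8 CPM with isotype control, 11.5, 10.4 and 10.4 with anti-PD1, 35.1, 33.97 and 35.2 with the combination and 104, 100.1 and 102 with anti-B7-H3. Anti-B7-H3 was apart from all other libraries, and anti-PD1 overlapped isotype control. The difference of anti-B7-H3 was 3.34 ± 0.108 (adjusted p = 1.06e-39), that of the combination 1.78 ± 0.129 (adjusted p = 5.37e-20), and that of anti-PD1 0.10 ± 0.164 (adjusted p = 0.702, not called). Factor B (Cfb), the protease subunit of the alternative convertase, stood at 7.73, 6.40 and 3.71 CPM with isotype control, 8.29, 8.54 and 9.62 with anti-PD1, 17.96, 18.7 and 20.0 with the combination and 41.0, 40.4 and 37.6 with anti-B7-H3. It was called higher in all 3 treatments, by 2.71 ± 0.159, 1.64 ± 0.182 and 0.54 ± 0.215 for anti-B7-H3, combination and anti-PD1. Its isotype control reads, 51 beside a background of 50.3, make these 4.73, 3.68 and 2.54 with background subtracted, and without isotype control replicate 3 the anti-PD1 value was 0.29 (adjusted p = 0.378).

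Factor D (Cfd), the protease that cleaves factor B and is also known as adipsin from fat cells, was not higher in the combination. Its level was 2.47, 8.40 and 4.46 CPM with isotype control, 3.67, 4.02 and 3.03 with anti-PD1, 4.07, 3.06 and 4.68 with the combination and 16.5, 17.8 and 19.4 with anti-B7-H3. The anti-B7-H3 libraries stood above all others, and the other 3 groups overlapped each other. It was higher in anti-B7-H3 by 1.87 ± 0.219 (adjusted p = 2.37e-11) and lower in the combination than in anti-B7-H3 by a log2 fold change of -2.16 ± 0.151 (adjusted p = 9.8e-20). The 5 genes of the adipocyte list summed to 10.01 ± 3.47 CPM in isotype control, 4.29 ± 0.177 in anti-PD1, 3.71 ± 0.626 with the combination and 11.4 ± 0.920 in anti-B7-H3, and of these Adipoq had 16, 16, 15 and 59 reads over the group. Over each group these 5 genes held 84 reads in isotype control, 103 in anti-PD1, 124 with the combination and 432 in anti-B7-H3. Background alone would give 86.7, 62.2, 8.22 and 1.08 in that order, so the isotype control sum did not exceed it. The part of fat cells in the Cfd result was not tested.

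The C1q chains C1qa, C1qb and C1qc, which assemble into the recognition molecule of the classical pathway, lie side by side on chromosome 4 with 3616 bases between C1qb and C1qc and 2851 between C1qc and C1qa. C1qa stood at 36.2, 48.4 and 49.4 CPM with isotype control, 70.4, 68.4 and 66.4 with anti-PD1, 195, 188 and 192 with the combination and 417, 414 and 410.1 with anti-B7-H3. C1qb stood at 47.0, 39.6 and 50.9 CPM with isotype control, 65.1, 58.5 and 67.1 with anti-PD1, 168, 174 and 166 with the combination and 325, 335 and 336 with anti-B7-H3. C1qc stood at 28.4, 37.6 and 39.7 CPM with isotype control, 69.9, 58.5 and 64.8 with anti-PD1, 164, 161 and 163 with the combination and 330.3, 332 and 340.5 with anti-B7-H3. For each chain the 4 groups did not overlap, in the order isotype control, anti-PD1, combination and anti-B7-H3.

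The chains were higher in anti-B7-H3 than in isotype control by 3.23 ± 0.0672, 2.85 ± 0.0669 and 3.26 ± 0.0732 for C1qa, C1qb and C1qc (largest adjusted p = 3.43e-48), and in the combination by 2.12 ± 0.0712, 1.88 ± 0.0708 and 2.22 ± 0.0783. In anti-PD1 they were higher by 0.63 ± 0.0811, 0.47 ± 0.0808 and 0.89 ± 0.0893 (largest adjusted p = 2.57e-06). With background subtracted the anti-PD1 values were 0.10, -0.07 and 0.38, of which only that of C1qc was called (adjusted p = 0.00557), the anti-B7-H3 values were 2.46, 2.08 and 2.51, and those of the combination 1.38, 1.14 and 1.499. That subtraction, with its new scaling, raised the median of all genes by 0.31 in the anti-B7-H3, 0.19 in the anti-PD1 and 0.26 in the combination comparison, while the C1q values fell. Reads of the chains in isotype control were 371, 388 and 293, well above the 16.2, 16.7 and 16.3 expected from background.

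Ratios within a library do not depend on its scaling. The C1q chains and C3 were set against the reads of 10 macrophage genes (Adgre1, Csf1r, Mrc1, Cd68, Mertk, Fcgr1, Lyz2, Cd163, Ms4a7 and Trem2), all 10 of which were called higher in anti-B7-H3 (median log2 fold change 2.40). Summed, they stood at 243 ± 1.81 CPM in isotype control, 313 ± 7.10 in anti-PD1, 877 ± 2.74 with the combination and 1721 ± 4.85 in anti-B7-H3 libraries. C1q chain reads per macrophage read were 0.517 ± 0.0600, 0.627 ± 0.0315, 0.597 ± 0.00459 and 0.628 ± 0.00402 in that order. No treatment overlapped isotype control in this ratio, which was 1.22-fold higher in anti-B7-H3, 1.22-fold in anti-PD1 and 1.16-fold in the combination (exact permutation test, two-sided p = 0.1 each, the smallest possible). With background subtracted from both sides they were 0.636 ± 0.0821, 0.650 ± 0.0312, 0.598 ± 0.00459 and 0.628 ± 0.00402, and each treatment overlapped isotype control. In bulk RNA, more cells of a type and more RNA per cell cannot be told apart.

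C3 per macrophage read was 0.127 ± 0.0163 in isotype control, 0.111 ± 0.00757 in anti-PD1, 0.242 ± 0.00663 with the combination and 0.659 ± 0.0108 in anti-B7-H3. The ratio was 5.20-fold higher in anti-B7-H3 than in isotype control, 7.02-fold with background subtracted, and 1.91-fold higher in the combination, in neither case with overlap with isotype control (exact permutation test, two-sided p = 0.1 each, the smallest that 3 against 3 libraries allow). In anti-PD1 it was 0.873 of isotype control, or 1.12 with background subtracted, and overlapped isotype control both ways. Set against 8 fibroblast genes, whose summed level was 1898 ± 132 CPM in isotype control, 4006 ± 123 in anti-PD1, 4280 ± 28.9 with the combination and 6627 ± 75.8 in anti-B7-H3, C3 per read was 10.5-fold higher in anti-B7-H3 than in isotype control and 3.05-fold higher in the combination, and in anti-PD1 it was 0.532 of isotype control, also without overlap (p = 0.1 each in the same exact test). These fibroblast ratios were not computed with background subtracted. Background would give 109 of 258 C3 reads in isotype control and 78.5 of 831 in anti-PD1. Of fibroblast reads it would give 463 of 16015 and 332 of 96143. The isotype control ratio thus holds the most background, and how far these folds depend on it was not tested. The 4 monocyte genes (Ly6c2, Ccr2, Plac8 and Chil3) were all called higher in anti-B7-H3, with a median log2 fold change of 4.19 beside 2.40 for the macrophage genes, and had sums of 39.8 ± 5.05 CPM with isotype control, 37.5 ± 1.501 with anti-PD1, 98.6 ± 1.30 with the combination and 683 ± 11.998 with anti-B7-H3. C3 per monocyte read was 0.782 ± 0.109, 0.926 ± 0.0810, 2.15 ± 0.0828 and 1.66 ± 0.0409 in that order. On this scale C3 was 2.14-fold higher in anti-B7-H3 and 2.77-fold higher in the combination than in isotype control, or 2.97-fold and 3.85-fold with background subtracted. The combination then stood 1.297-fold above anti-B7-H3, where the ratios to macrophage and fibroblast reads placed it below, without overlap in any of the 3 (exact permutation test, two-sided p = 0.1 each). The size of the C3 difference, and the order of these groups, thus depended on the cell type it was set against. B cell genes also stood higher, with 6 genes summing to 38.9 ± 4.61 CPM with isotype control, 56.7 ± 3.29 with anti-PD1, 358 ± 5.71 with the combination and 2094 ± 14.0 with anti-B7-H3, although of the 5 tested only 2 were called higher and 1 lower in anti-B7-H3. Between members, C3 per kilobase was 0.103 ± 0.00506 of C1qa in isotype control, 0.0749 ± 0.00479 in anti-PD1, 0.164 ± 0.00423 with the combination and 0.405 ± 0.00237 in anti-B7-H3. Of 7 liver cell genes, which summed to 10.2 ± 2.98 CPM in isotype control, 3.79 ± 0.136 in anti-PD1, 6.62 ± 0.686 with the combination and 17.1 ± 0.383 in anti-B7-H3, Alb had 10, 9, 1 and 2 reads in that order, and Ttr, Apoa1, Fgb and Ahsg had 0 in anti-B7-H3. The sum in anti-B7-H3 was mostly Hp, haptoglobin, which other cells also make, with 11, 28, 203 and 601 reads, and Cyp2e1 had 22, 23, 11 and 47. Together the 7 liver cell genes held 84 isotype control reads, below a background of 177, and 650 in anti-B7-H3 beside 2.20. The cell type behind C3 was not tested.

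**Figure D4:**
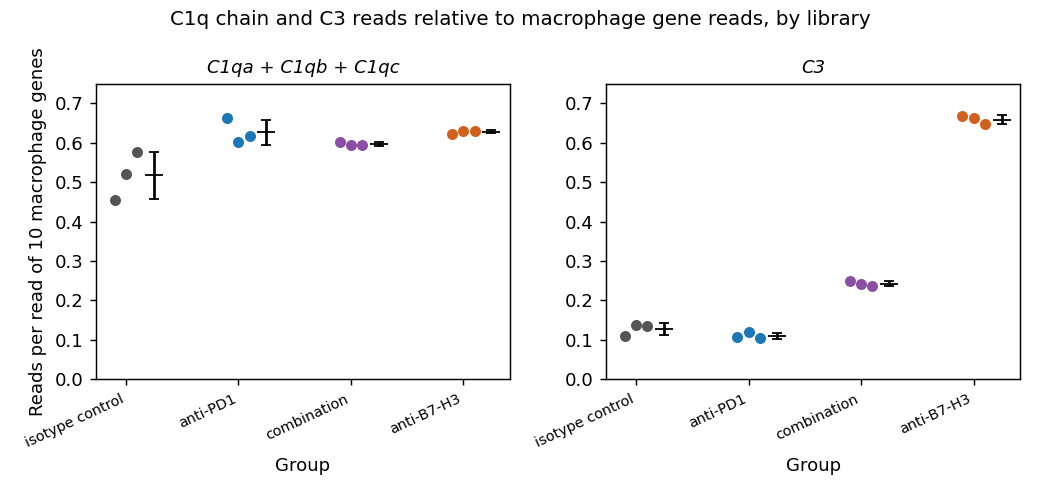
Reads of the 3 C1q chain genes (left) and of C3 (right) per read of 10 macrophage genes in each library, with mean and SD beside the points. C1q values lie between 0.456 and 0.662 in all groups, and C3 values of anti-B7-H3 (mean 0.659) and the combination (mean 0.242) stand above those of isotype control and anti-PD1, which overlap.

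C1ra, the first protease of the C1 complex, stood at 11.75, 10.8 and 11.5 CPM with isotype control, 5.69, 6.15 and 5.27 with anti-PD1, 13.3, 13.2 and 14.3 with the combination and 40.7, 33.97 and 33.5 with anti-B7-H3. It was higher in anti-B7-H3 by 1.66 ± 0.139 (adjusted p = 2.16e-17), lower in anti-PD1 by a log2 fold change of -0.99 ± 0.198 (adjusted p = 3.22e-05), and did not pass in the combination at 0.26 ± 0.163 (adjusted p = 0.17). C1s1, the protease that C1r activates, lies 6901 bases from C1ra on chromosome 6 in the opposite direction and stood at 10.2, 12.4 and 14.5 CPM with isotype control, 9.12, 9.42 and 8.17 with anti-PD1, 12.3, 12.2 and 10.4 with the combination and 31.2, 33.97 and 35.1 with anti-B7-H3. Its anti-B7-H3 difference was 1.45 ± 0.138 (adjusted p = 6.21e-15), and its anti-PD1 difference of -0.46 ± 0.178 (adjusted p = 0.0358) was -0.33 with an adjusted p of 0.224 without isotype control replicate 3 and -0.45 with one of 0.174 with background subtracted. The C1q chains were thus called higher and both proteases lower in the same anti-PD1 libraries. Near-identical copies, C1rb with 59, 42, 6 and 0 reads and C1s2 with 90, 42, 12 and 2 in isotype control, anti-PD1, combination and anti-B7-H3, may share reads with these genes, and no source used here gives how such reads were split.

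C4b, the thioester protein cleaved by C1s, was the most abundant member by CPM in isotype control. Its level was 116, 106 and 112 CPM with isotype control, 114, 98.6 and 108 with anti-PD1, 186, 181 and 185 with the combination and 294, 294 and 290.4 with anti-B7-H3. Anti-PD1 overlapped isotype control, and the combination and anti-B7-H3 each stood apart. C4b was higher in anti-B7-H3 by 1.39 ± 0.0559 (adjusted p = 6.32e-34) and in the combination by 0.72 ± 0.0577 (adjusted p = 6.22e-18). With background subtracted and scaling estimated anew these were 0.74 and 0.10, the latter not called (adjusted p = 0.13). C4b held 942 isotype control reads beside a background of 114. C2, which joins C4b in the classical convertase and lies 85 bases from Cfb on chromosome 17, stood at 3.09, 0.4 and 1.49 CPM with isotype control, 0, 1.005 and 1.32 with anti-PD1, 2.04, 2.17 and 1.64 with the combination and 7.04, 7.69 and 7.25 with anti-B7-H3. The isotype control reads of C2, 15 over 3 libraries, lay below a background of 50.1. Its difference of 2.04 ± 0.417 in anti-B7-H3 (adjusted p = 0.000108) became 2.88 without isotype control replicate 1. With background subtracted it became 8.87, which depends on the prior count and is no bound. Against anti-B7-H3, C2 was lower in the combination by a log2 fold change of -1.91 ± 0.272 (adjusted p = 1.45e-06).

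In the lectin pathway, Masp1, a protease of mannose-binding lectin complexes, stood at 11.1, 6.80 and 7.43 CPM with isotype control, 7.94, 8.04 and 9.62 with anti-PD1, 8.06, 6.91 and 7.79 with the combination and 4.79, 4.88 and 5.26 with anti-B7-H3, where the anti-B7-H3 libraries lay below all others. Its lower level in anti-B7-H3, -0.79 ± 0.215 on the log2 scale (adjusted p = 0.000969), was -0.54 without isotype control replicate 1 (adjusted p = 0.0739) and -0.08 with background subtracted (adjusted p = 0.889). The second protease gene, Masp2, had read counts of 31 with isotype control, 96 with anti-PD1, 5 with the combination and 0 with anti-B7-H3, with 45.1 reads of background expected in isotype control. Colec12, a scavenger receptor with a collectin domain, stood at 5.26, 6.80 and 7.80 CPM with isotype control, 7.82, 8.67 and 7.90 with anti-PD1, 7.59, 10.1 and 8.203 with the combination and 15.6, 13.9 and 11.2 with anti-B7-H3. It was higher in anti-B7-H3 by 1.06 ± 0.202 (adjusted p = 5.47e-06), or 3.19 with background subtracted, since its 55 isotype control reads stood beside a background of 48.9.

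C6 belongs to the terminal pathway, which builds the membrane attack complex, and stood at 1.55, 7.60 and 6.31 CPM with isotype control, 3.32, 3.27 and 1.84 with anti-PD1, 13.8, 13.8 and 11.5 with the combination and 23.7, 24.5 and 24.6 with anti-B7-H3. The combination and anti-B7-H3 did not overlap isotype control or anti-PD1, with differences from isotype control of 1.41 ± 0.247 (adjusted p = 6.45e-06) and 2.31 ± 0.22 (adjusted p = 6.36e-12). Isotype control held 41 reads beside a background of 61.5, so both folds rest on a level at background. With it subtracted they become 9.70 and 10.6, values that depend on the prior count and are no bound. The combination was higher than anti-PD1 by 2.19 ± 0.197, or 3.38 with background subtracted, on 68 anti-PD1 reads beside 44.1. Hc encodes C5, the source of C5a and of the first protein of the attack complex, and stood at 8.97, 7.60 and 9.29 CPM with isotype control, 2.84, 3.27 and 3.69 with anti-PD1, 4.72, 2.76 and 3.36 with the combination and 5.32, 5.87 and 5.10 with anti-B7-H3. It was called lower in all 3 treatments, by log2 fold changes of -0.67 ± 0.22, -1.41 ± 0.252 and -1.25 ± 0.237 in the order anti-B7-H3, anti-PD1, combination. All 3 turn in direction with background subtracted, at 8.43, 2.87 and 7.76 (adjusted p = 3.47e-05, 0.615 and 0.0007). Isotype control held 73 Hc reads where background gives 111, so these values too depend on the prior count. C7, which joins C6 in the complex, had read counts of 34 with isotype control, 24 with anti-PD1, 12 with the combination and 24 with anti-B7-H3 and was not tested.

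Among regulators, the inhibitor of C1r, C1s and MASP proteases, Serping1, had the largest called increase in anti-B7-H3. Its level was 10.5, 9.60 and 9.66 CPM with isotype control, 8.18, 11.1 and 8.96 with anti-PD1, 29.2, 28.8 and 26.8 with the combination and 83.0, 81.8 and 82.3 with anti-B7-H3. Isotype control and anti-PD1 overlapped, the combination lay above them and anti-B7-H3 above all. The difference from isotype control was 3.05 ± 0.117 in anti-B7-H3 (8.25-fold, adjusted p = 5.18e-35), 1.501 ± 0.14 in the combination (adjusted p = 4.44e-15), and it was not called in anti-PD1. Per fibroblast gene read, without background subtracted, Serping1 stood at 0.00525 ± 0.000429 in isotype control, 0.00235 ± 0.000449 in anti-PD1, 0.00661 ± 0.000334 with the combination and 0.0124 ± 0.000221 in anti-B7-H3.

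Membrane regulators protect host cells by breaking down convertases or blocking the attack complex. Cr1l encodes Crry, the main membrane convertase regulator of mouse cells, and stood at 9.89, 14.0 and 15.2 CPM with isotype control, 11.73, 15.4 and 14.0 with anti-PD1, 21.6, 17.4 and 18.8 with the combination and 22.7, 25.3 and 21.8 with anti-B7-H3. It was higher in anti-B7-H3 by 0.86 ± 0.15 (adjusted p = 9.83e-07) and in the combination by 0.58 ± 0.156 (adjusted p = 0.001), the latter 0.37 without isotype control replicate 1 (adjusted p = 0.0718) and 0.21 with background subtracted (adjusted p = 0.421). Clu, clusterin, a soluble inhibitor of the attack complex, stood at 3.09, 8.001 and 3.71 CPM with isotype control, 2.96, 2.26 and 2.503 with anti-PD1, 5.83, 4.74 and 3.53 with the combination and 6.96, 5.21 and 5.66 with anti-B7-H3. Its lower level in anti-PD1, -0.88 ± 0.325 on the log2 scale (adjusted p = 0.0262), was -0.40 without isotype control replicate 2 (adjusted p = 0.474) and -0.20 with background subtracted (adjusted p = 0.88).

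The remaining regulators had under 100 reads in every group, and read counts over the 3 libraries are given. Cd55, decay-accelerating factor, had 21 with isotype control, 22 with anti-PD1, 14 with the combination and 56 with anti-B7-H3. Cd46, a cofactor for C3b cleavage that in the mouse is mostly confined to the testis, had 20 with isotype control, 50 with anti-PD1, 38 with the combination and 20 with anti-B7-H3. Cd59a, which blocks the attack complex, had 12 with isotype control, 31 with anti-PD1, 55 with the combination and 51 with anti-B7-H3. Factor I (Cfi), the protease that inactivates C3b, had 19 with isotype control, 15 with anti-PD1, 20 with the combination and 55 with anti-B7-H3. Vtn, vitronectin, which binds the attack complex in solution, had 19 with isotype control, 8 with anti-PD1, 9 with the combination and 19 with anti-B7-H3 and was not tested. For Cd55, Cd46, Cfi and Vtn the isotype control reads did not exceed background. Reads can be shared between Cd55 and Cd55b and between Cd59a and Cd59b.

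Receptors of C3 fragments and of anaphylatoxins were mostly higher with anti-B7-H3. Itgb2 encodes the beta chain that pairs with the alpha chain Itgam in complement receptor 3 and with Itgax in complement receptor 4, both of which bind iC3b on myeloid cells. Itgb2 stood at 21.9, 24.8 and 20.4 CPM with isotype control, 29.9, 29.5 and 29.0 with anti-PD1, 80.2, 74.7 and 80.1 with the combination and 139, 144 and 148 with anti-B7-H3. Itgam stood at 26.9, 20.8 and 28.2 CPM with isotype control, 18.5, 20.7 and 16.6 with anti-PD1, 48.2, 55.1 and 52.1 with the combination and 95.4, 97.3 and 93.7 with anti-B7-H3. Itgax, 11055 bases from Itgam on chromosome 7, stood at 24.4, 21.2 and 28.2 CPM with isotype control, 37.2, 31.7 and 38.1 with anti-PD1, 61.5, 67.3 and 65.0 with the combination and 129.6, 123 and 125 with anti-B7-H3. For Itgb2 and Itgax the groups did not overlap, in the order isotype control, anti-PD1, combination and anti-B7-H3, whereas for Itgam the anti-PD1 libraries lay below isotype control.

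The anti-B7-H3 differences were 2.69 ± 0.0828, 1.90 ± 0.0917 and 2.35 ± 0.0869 for Itgb2, Itgam and Itgax (largest adjusted p = 2.14e-29). In anti-PD1, Itgax was higher by 0.53 ± 0.108 (adjusted p = 4.73e-05) and Itgam lower by a log2 fold change of -0.45 ± 0.122 (adjusted p = 0.00202). Itgb2 was higher there by 0.40 ± 0.108 (adjusted p = 0.00231 in edgeR), but with background subtracted by 0.19, which was not called (adjusted p = 0.304). Per kilobase, Itgax stood at 0.974 ± 0.0593 of Itgam in isotype control, 1.94 ± 0.387 in anti-PD1, 1.25 ± 0.0261 with the combination and 1.32 ± 0.0509 in anti-B7-H3. Per kilobase in anti-B7-H3 libraries, Itgb2 was at 62.2 ± 2.04 CPM beside 27.2 ± 0.505 for Itgam and 35.9 ± 0.989 for Itgax.

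C3ar1, the receptor of C3a, stood at 11.1, 10.4 and 10.8 CPM with isotype control, 9.60, 9.67 and 9.62 with anti-PD1, 25.8, 26.4 and 29.4 with the combination and 51.6, 53.0 and 51.7 with anti-B7-H3. The combination and anti-B7-H3 each stood above the other groups, with differences from isotype control of 1.34 ± 0.139 (adjusted p = 3.28e-13) and 2.27 ± 0.125 (adjusted p = 3.52e-26), beside -0.17 ± 0.172 in anti-PD1 (adjusted p = 0.495, not called). C5ar1, the main receptor of C5a, stood at 6.18, 4.40 and 13.4 CPM with isotype control, 4.74, 4.14 and 5.27 with anti-PD1, 14.3, 14.0 and 15.7 with the combination and 23.2, 26.7 and 28.1 with anti-B7-H3, with isotype control replicate 3 apart from the other 2. It was higher in anti-B7-H3 by 1.71 ± 0.184 (adjusted p = 5.22e-11) and in the combination by 0.89 ± 0.205 (adjusted p = 0.000262), the latter 0.68 with background subtracted (adjusted p = 0.0929). Its lower level in anti-PD1, -0.75 ± 0.26 on the log2 scale (adjusted p = 0.0191), was -0.21 without isotype control replicate 3 (adjusted p = 0.631) and -0.95 with background subtracted (adjusted p = 0.0976). Its neighbour C5ar2, a second C5a receptor that does not couple to G proteins, had read counts of 5 with isotype control, 6 with anti-PD1, 19 with the combination and 23 with anti-B7-H3.

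Cd93, once proposed as a C1q receptor and known from endothelial and myeloid cells, was the only member tested whose level was called higher in the combination than in both antibodies alone. It stood at 13.9, 10.8 and 11.9 CPM with isotype control, 10.7, 10.7 and 8.96 with anti-PD1, 19.6, 22.7 and 21.1 with the combination and 17.6, 17.3 and 15.9 with anti-B7-H3. The combination libraries lay above all others, by 0.32 ± 0.093 over anti-B7-H3 (adjusted p = 0.0042) and by 1.06 ± 0.113 over anti-PD1 (adjusted p = 1.31e-12). In anti-B7-H3, Cd93 was higher than in isotype control by 0.46 ± 0.151 (adjusted p = 0.00657 in edgeR). With background subtracted this was 0.37 and not called (adjusted p = 0.109). The 6 endothelial genes beside it summed to 73.7 ± 4.28 CPM in isotype control, 62.4 ± 1.06 in anti-PD1, 80.5 ± 4.29 with the combination and 104 ± 2.33 in anti-B7-H3. Background alone would give 465 of their 620 reads in isotype control, 333 of 1499 in anti-PD1, 44.1 of 2674 with the combination and 5.78 of 3960 in anti-B7-H3. C1qbp, a mitochondrial protein also described as a binder of C1q, stood at 10.2, 4 and 8.91 CPM with isotype control, 8.06, 9.80 and 9.22 with anti-PD1, 12.3, 12.1 and 11.5 with the combination and 11.1, 12.2 and 11.4 with anti-B7-H3. Its differences of 0.54 ± 0.194 in anti-B7-H3 and 0.59 ± 0.195 in the combination (adjusted p = 0.012 and 0.00738) did not pass without isotype control replicate 2, at 0.24 and 0.30, or with background subtracted, at 0.19 and 0.26 (adjusted p = 0.556 and 0.439). Vsig4, a C3b receptor of resident macrophages, had read counts of 6 with isotype control, 10 with anti-PD1, 17 with the combination and 2 with anti-B7-H3, while the macrophage marker Adgre1 had 131, 444, 1644 and 4100 in the same order.

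In the interaction test on C3, the effects of each antibody alone were 5.21 and 0.18 and that of both was 2.79, which lies -2.59 ± 0.102 from their sum (log2, adjusted p = 1.48e-33 in edgeR). The C1q chains lay below the sum by log2 values of -1.74, -1.44 and -1.93 for C1qa, C1qb and C1qc. The members below the sum for the alternative pathway were Cfd at -1.72, Cfp at -1.65 and Cfb at -1.61. Cd93 was above it at 0.60 ± 0.197 (adjusted p = 0.0121), or 0.50 without isotype control replicate 1 (adjusted p = 0.0884). For C6 and C5ar1 the interaction was not called. For all 15 members below the sum, the combination was lower than anti-B7-H3 alone.

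**Figure D5:**
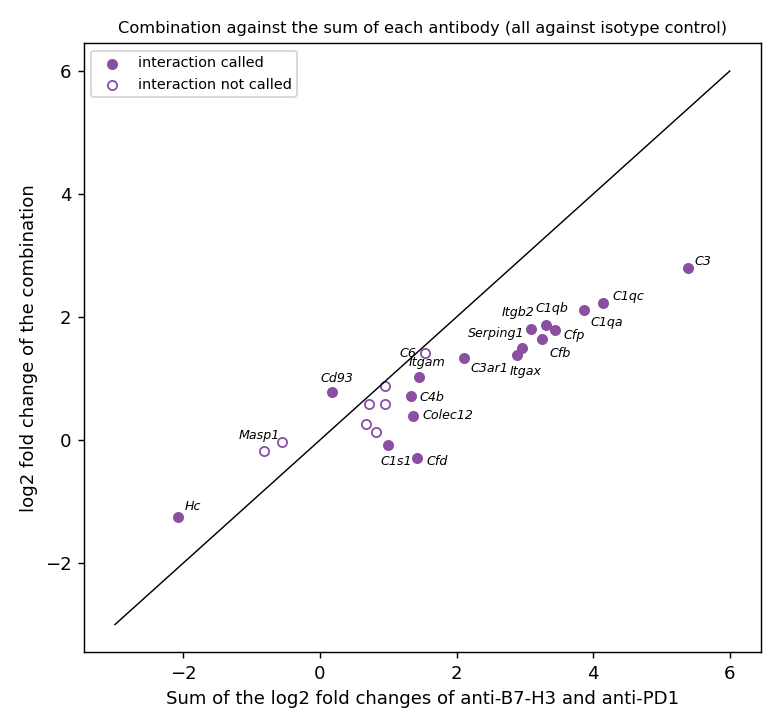
log2 fold change of the combination against the sum of the log2 fold changes of the single antibodies, all against isotype control, for 25 complement genes (filled, interaction called). C3 lies farthest below the line of equality, at 2.79 on the vertical axis beside single effects of 5.21 and 0.18, and Cd93 and Hc lie above it.

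Other complement genes were taken from a list of 30, of which 29 were in the annotation and 9 had enough reads to be tested. In anti-B7-H3 against isotype control 2 of the 9 were higher and 5 lower, beside 30.8% and 33.3% of all genes tested. Fcna, ficolin A, a lectin of macrophages, was higher by 2.87. The 3 with the largest differences, Csmd2, C1s2 and Csmd3, were lower and had 136, 90 and 95 reads over the isotype control libraries beside 0, 2 and 3 in anti-B7-H3; the isotype control reads of Csmd2 and Csmd3 lay below a background of 238 and 244. In the combination 2 were higher and 7 lower than in isotype control (27.8% and 29.5% of all genes), with Fcna at 2.60, and in anti-PD1 none was higher and 7 were lower (17.5% and 20.9%). In the combination against anti-B7-H3 Fcna was lower by a log2 fold change of -0.27.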

How the data were processed

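Bulk RNA was sequenced in 12 libraries, 3 in each of 4 groups; per the labels' protocols, RNA was column-purified with a RIN of at least 7.0 and 500 ng or more went into ribosomal RNA depletion and total RNA library preparation. FastQC 0.11.8 and build GRCm38 are named per the submitters' processing notes; the quantifier and its strand setting are not given in the sources used here. The authors deposited estimated counts per transcript (58083 transcripts, with coding lengths). These were summed per gene through GENCODE M21 (57473 transcripts matched; 1.05% did not) and rounded to whole counts, giving 22195 genes.

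Genes with enough reads (edgeR's filterByExpr, 13478 genes) were fitted over all 12 libraries with 1 mean per group, TMM scaling and the robust quasi-likelihood F test (edgeR 4.0.16, R 4.3.3, limma 3.58.1), Benjamini-Hochberg adjusted over all genes tested, with 0.05 as the threshold. The script was tested on simulated data. The standard error is the log2 fold change divided by the root of F. Background is the read rate over 1550 chemoreceptor genes (olfactory, vomeronasal and taste receptors) times a gene's longest coding length. Levels and fold changes are given for members with at least 100 reads over some group; uncalled values are given for C3, Cfp and C3ar1 (anti-PD1) and C1ra (combination), and for other complement genes at most the 3 largest differences plus Fcna, chosen after its values were seen; 1 other is not reported here. The ratio of C3 to monocyte reads was added after the data were seen. DESeq2 1.42.0 was an alternative, with those named in the closing section. The members and lists were chosen with earlier results of these data known.

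Replicates of a group differed by more than sampling noise: the median chi-square of 12 within-group pairs was 0.534 to 0.712 (0.455 from sampling noise alone). Replicate numbers are shared by the groups, and the 18 correlations of same-numbered deviations ran from -0.036 to 0.043, so no pairing by number was seen. Pairing is not excluded, because the deviations were not far above sampling noise and could hide a small shared effect. Depth limits precision most in isotype control, with 2499695 to 3234699 TMM-scaled reads per library.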

Additional observations from a re-analysis of the deposited data

Results flagged for a closer look

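For 18 complement genes, the effect of both antibodies differed from the sum of the effects of each (edgeR's quasi-likelihood interaction test, adjusted p under 0.05 over all genes, 36.4% of which were called). The log2 values below the sum were C3 -2.59, C1qc -1.93, C1qa -1.74, Cfd -1.72, Cfp -1.65, Cfb -1.61, Itgax -1.49, Serping1 -1.46, C1qb -1.44, Itgb2 -1.27, C1s1 -1.07, Colec12 -0.98, C3ar1 -0.77, C4b -0.61 and Itgam -0.43. Above the sum were Masp2 at 3.40, Hc at 0.83 and Cd93 at 0.60. The Masp2 value rests on few reads, with 0 in anti-B7-H3 libraries, so it depends on the prior count and is no bound. With background subtracted, C4b (-0.14) and Itgam (-0.28) were no longer called and the C1q chains C1qa, C1qb and C1qc gave -1.18, -0.88 and -1.39, while Cfb (-3.59) and Colec12 (-3.06) moved further below the sum.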

How the results depend on the processing

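Over the 119 member values, 2581 of 2715 recomputed values kept their direction and side of the threshold, 125 lost the call, 4 gained it and 5 turned: with background subtracted, Hc gave 8.43, 2.87 and 7.76 against isotype control for anti-B7-H3, for anti-PD1 and for both antibodies, and -3.55 for the interaction, and C1qb gave -0.066 (anti-PD1). For Hc the isotype control reads lay under background and counts below 0 were set to 0, so its values depend on the prior count. The cause of the turn of C1qb was not tested. Counts of members called moved as follows. With background subtracted, those lower against isotype control went from 4 to 0 (anti-B7-H3), 8 to 3 (anti-PD1) and 5 to 0 (combination). With genes well above background they were 1, 5 and 0, and with a 2-fold minimum 2 and 3 for anti-B7-H3 and anti-PD1. Fitting only the groups compared gave 3 and 3 for anti-PD1 and combination. The 6 higher in anti-PD1 became 0 with the 2-fold minimum. Against anti-B7-H3, the 4 higher in combination became 2 under all 4 of these settings, and the 23 lower became 12 with the 2-fold minimum. Against anti-PD1, the 1 lower became 2 with DESeq2 size factors, no filter, only the groups compared, satellite-like genes left out or no robust fit, and 0 with genes well above background. The 3 above the sum became 1 with background subtracted or the 2-fold minimum. Of the 6 higher in anti-PD1, C1qa, C1qb and Itgb2 were no longer called with background subtracted. Over all alternatives but leaving out 1 library, members higher against isotype control numbered 19 to 23 (anti-B7-H3) and 12 to 19 (combination). Those higher in the combination than in anti-PD1 numbered 15 to 22, and those below the sum 11 to 17.

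Leaving out 1 library gave 21 to 22 higher and 4 to 6 lower for anti-B7-H3, 5 to 6 and 6 to 11 for anti-PD1 and 16 to 18 and 4 to 7 for the combination against isotype control. It gave 2 to 4 and 20 to 23 against anti-B7-H3, 19 to 21 and 1 to 3 against anti-PD1, and 1 to 4 above and 14 to 15 below the sum. With the replicate number as a block, C2 in combination against anti-PD1 lost its call (1.35, adjusted p = 0.0557, 20 in place of 21), and no other call of a member value changed. Fitting only the groups compared was not run for the interaction, which needs all 4.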
